A study of Micropterus salmoides with 24 samples.

Results

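In the kidneys of male largemouth bass, 95 transcript contigs had levels split by a wide gap between libraries. Each fell into a set of high and a set of low libraries, the latter often at 0 counts, in both the head kidney and the trunk kidney. They were picked from 78435 contigs by that pattern alone, with no regard to treatment. A contig was kept if its highest value was above 1.5 log2 CPM (library-scaled counts per 1e+06) in each tissue and if its 12 sorted values in each tissue left a space wider than 3 log2 units (8-fold) between neighbours, called the gap below. At least 2 libraries had to lie on each side of the gap. Libraries above the widest such gap in a tissue are called on, those below it off. The split into high and low values is therefore a description and was not tested.

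A transcript contig is a sequence assembled from overlapping reads, and 1 gene can give several contigs. The head kidney of bony fish is a blood-forming and immune organ, and its interrenal cells secrete steroid hormones such as cortisol. Nephrons, the units that filter blood and form urine, lie mainly in the trunk kidney. Both organs of each fish were dissected, per the labels.

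The adult male fish came from a hatchery in Florida and lived for 21 days in glass tanks of 38 L, with 4 fish to a tank and 4 tanks per treatment. Controls had clean water, the glyphosate group had the herbicide glyphosate at 10 mg/L, and the Rodeo group had the commercial product Rodeo at 10 mg/L of glyphosate. Messenger RNA was sequenced from 4 libraries for each tissue and treatment, 24 in all. The labels do not tie a library to a tank or say which head and trunk libraries came from the same fish, so each p-value reflects only how these libraries vary. Totals ran from 9871623 to 24374444 counts in head kidney and from 22259411 to 29858387 in trunk kidney. In bulk tissue, fewer cells of a type and less RNA per cell cannot be told apart. None of the contig identifiers could be paired with a gene name (0 of 78435), so members are given by identifier, their sequences and functions are not given, and no marker could check the tissue labels.

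The 95 contigs were 0.121% of all contigs and 0.434% of the 21907 contigs that passed 1.5 log2 CPM in both tissues. Of those 21907, 232 had such a gap in head kidney and 208 in trunk kidney. The members were 40.9% of the former and 45.7% of the latter. The gap of the members had a median of 3.93 in head kidney and 4.17 in trunk kidney, up to 7.49 and 7.80. Just inside the limit lay LMB_Assem.1703.CB10, with a gap of 3.02 in head kidney, and isotig79235_0, with 3.02 in trunk kidney. Just outside lay isotig52003_0, with 2.99 in head kidney, and LMB_Assem.0.CB3067, with 2.99 in trunk kidney. The identifiers came in 3 kinds. Of the contigs above the minimum in both tissues, 0.15% of the LMB_Assem kind, 0.825% of the isotig kind and 1.07% of the contig kind were members (21, 37 and 37 contigs).

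Together the members made up a small part of the RNA, from 0.123% to 0.253% of the counts of a head library and from 0.0272% to 0.105% of those of a trunk library. Most off values were at or near 0, but not all. In head kidney 54.1% of 488 off values were 0 counts and 71.9% were at most 3 counts. In trunk kidney the shares were 71.5% and 85% of 519 off values. Off values nevertheless reached 10.7 CPM (LMB_Assem.0.C214 in head Rodeo 3, 191 counts) in head and 8.44 CPM in trunk kidney. For LMB_Assem.0.CB1532 the 5 off libraries of trunk kidney held 27 to 73 counts (2.17 to 3.77 CPM), so off means low relative to the other libraries and not absent. The on values had a median of 9.54 CPM in head kidney and 5.11 CPM in trunk kidney, with maxima of 672 and 366 CPM. Their minima were 0.349 CPM in head and 0.347 CPM in trunk kidney, and the fewest counts of an on value were 5 and 6. Some on values thus lay below off values of other contigs, and some splits rest on few reads. Counts of 0 allow up to 3 counts, which is 0.094 to 0.276 CPM in a head library and 0.109 to 0.241 CPM in a trunk library, for counting error only.

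The highest mean on level of both tissues belonged to contig00205, in CPM, which is not per length and does not rank contigs by abundance. In head kidney it stood at 672 CPM in control 2, 319 CPM in control 3 and 226 CPM in glyphosate 1, against at most 10.5 CPM in the other 9 libraries. In trunk kidney it stood at 136 CPM in control 4, 222 CPM in glyphosate 3, 179 CPM in glyphosate 4, 160 CPM in Rodeo 1 and 366 CPM in Rodeo 4, against at most 8.44 CPM in the other 7. Over both tissues high libraries thus occurred under all 3 treatment labels, but in head kidney no Rodeo library was high. By the rule no library lies between the sets. The next in on level, contig23756, stood at 194 to 379 CPM in 3 head libraries and at 196 to 275 CPM in 4 trunk libraries. Its off libraries reached 5.04 CPM in head and 6.65 CPM in trunk kidney. The third, contig52268, was on in 7 head libraries at 96.8 to 294 CPM and in 7 trunk libraries at 54.9 to 137 CPM.

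The cleanest separation belonged to isotig45252_0. In head kidney it stood at 10.0 CPM in control 1, 14.4 CPM in glyphosate 1, 8.73 CPM in glyphosate 3, 15.0 CPM in glyphosate 4, 11.8 CPM in Rodeo 1 and 12.3 CPM in Rodeo 2. Trunk values were 3.15 CPM in control 1, 3.11 CPM in control 2, 5.75 CPM in control 3 and 2.73 CPM in Rodeo 4. All 14 other libraries held 0 counts of it. For isotig81098 the on values were 18.9 to 44.4 CPM in head and 20.6 to 46.7 CPM in trunk kidney, and the off values were at most 0.336 CPM. Within the on state the spread was narrower than the gap for most members. The on libraries of a contig spanned a median of 1.81 in head and 2.08 in trunk kidney on the log2 scale. A span of more than 3 was found for 18 contigs in head and 16 in trunk kidney. A second gap of more than 3 inside the on set was found for 2 contigs in head kidney (contig15229 and contig29402) and 1 in trunk kidney (isotig130311). Gaps of that width also occurred inside the off set, such as for isotig105033 in head kidney (8 and 10 counts against 0) and contig31713 in trunk kidney (9 and 35 counts against 0).

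**Figure D1:**
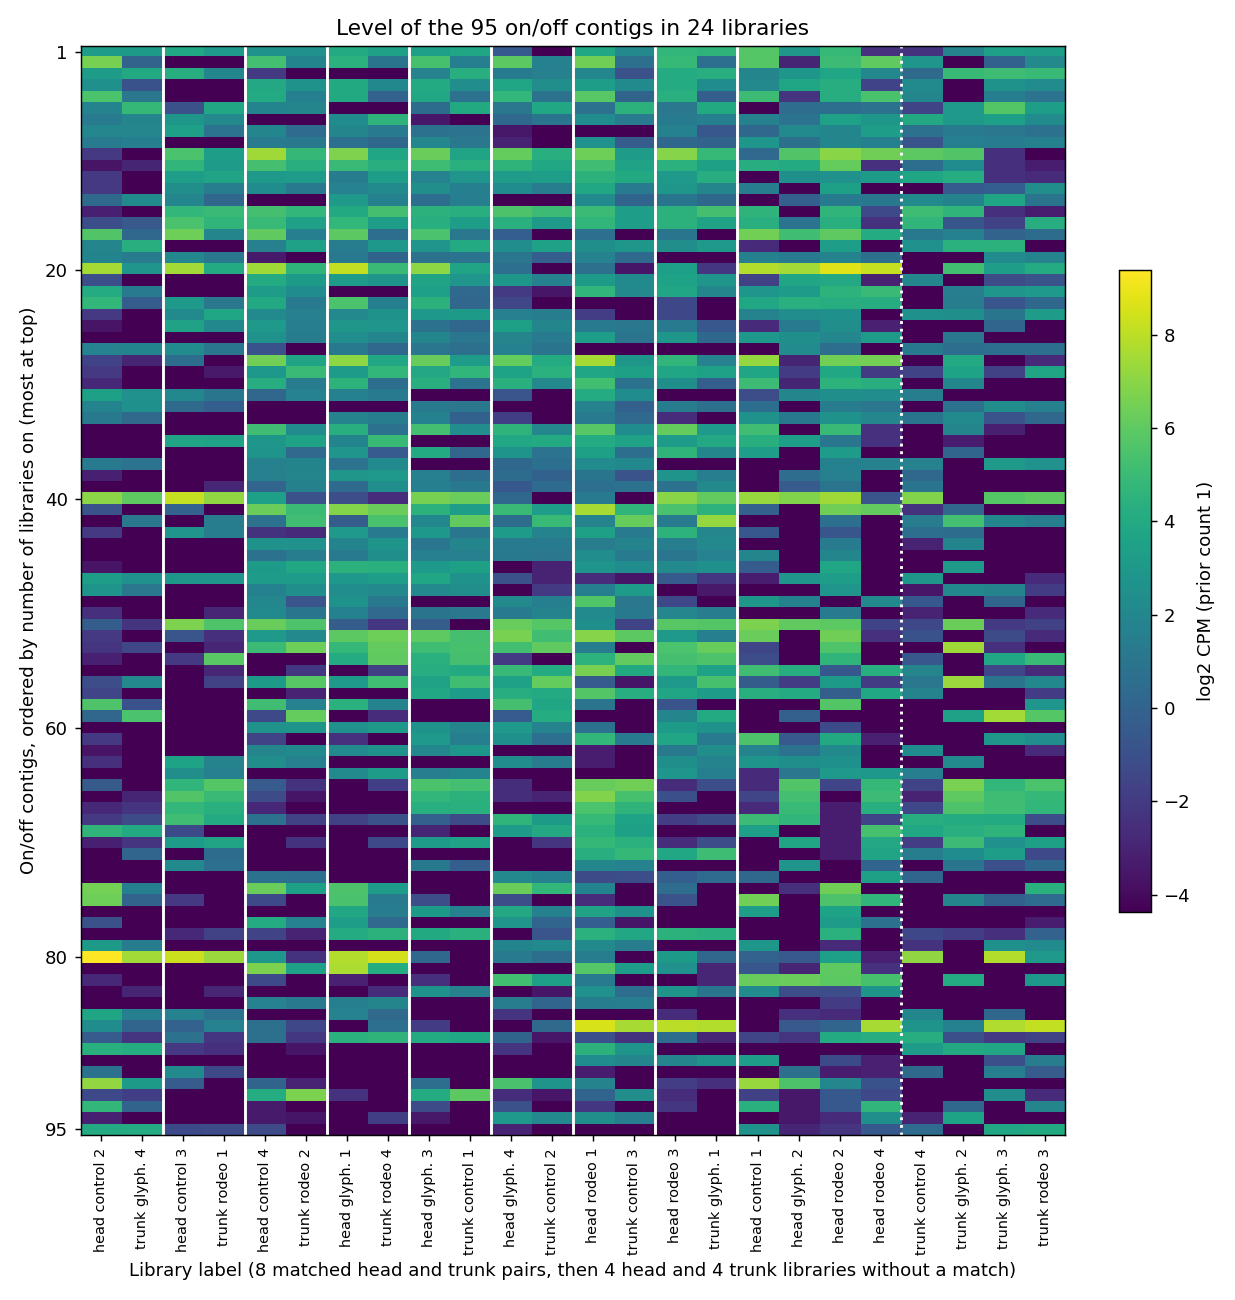
Level of each of the 95 on/off contigs (rows) in each of the 24 libraries (columns), as log2 CPM with a prior count of 1. White lines set apart 8 pairs of 1 head and 1 trunk library with like states, and the dotted line divides the 4 unmatched head from the 4 unmatched trunk libraries. Within a pair the bright and dark rows coincide, at 95.8% to 100% of the contigs.

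Some head and trunk libraries had nearly the same contigs on, although their treatment labels differed, which bears on every comparison of treatments below. Each head library was set against each trunk library, 144 pairs in all, by the share of the 95 contigs in the same state. In 8 pairs each library was the best partner of the other, with 95.8% to 100% of contigs alike. The other pairs were alike for 30.5% to 85.3%, with a median of 52.6%. Head glyphosate 1 and trunk Rodeo 4 had the same 63 contigs on, and head glyphosate 3 and trunk control 1 the same 65. The treatment labels of the 2 libraries differed in all 8 pairs (0 with the same label). Leaving out any 1 of the 95 contigs returned the same 8 pairs each time. With matched pairs at 95.8% or more and the others at 85.3% or less, no single contig could have changed them. The matched pairs were chosen for their likeness over these contigs, so their high shares are part of how they were found.

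The likeness was also read from contigs that are not members. Of these, 250 contigs had a gap in 1 tissue only. They were picked by the same gap rule from the same values, so they are near the members by choice. Over these 250, the Pearson correlation of tissue-centred log2 CPM was highest in both directions for 7 of the 8 pairs. The lowest of the 8 values was 0.391, for head control 2 and trunk glyphosate 4, and the highest in any other pair was 0.488. Over all 21812 non-members above the minimum in both tissues the picture was weaker. There 4 of the 8 pairs were best in both directions, with r between -0.0793 and 0.407 over the 8 pairs, and up to 0.308 in other pairs. In all, 8 pairs of libraries were best in both directions there, so some joined libraries that are not matched. Head Rodeo 1, for one, had r of 0.308 with trunk Rodeo 4 and of -0.0793 with its match, trunk control 3. Contigs share libraries and are not independent, so these are descriptions of likeness and carry no p.

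A number in the name of each deposited file gives a further measured fact. The 12 head and the 12 trunk files share 8 of these numbers. Head and trunk files with the same number were alike for only 35.8% to 76.8% of the contigs, and 0 of the 8 matched pairs carry the same number. The 8 matched trunk libraries are those whose number also occurs among the head files, and 0 of the 4 unmatched trunk libraries has such a number. With the 12 head files ranked by number, the head file that carries the number of the matched trunk file stood 6 places away, counted in a circle, in 8 of 8 pairs. The same step from the 4 unmatched head files led to 4 numbers that occur in no trunk file. How this arose was not tested. No library was moved to another group, and all comparisons below use the labels as given.

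**Figure D2:**
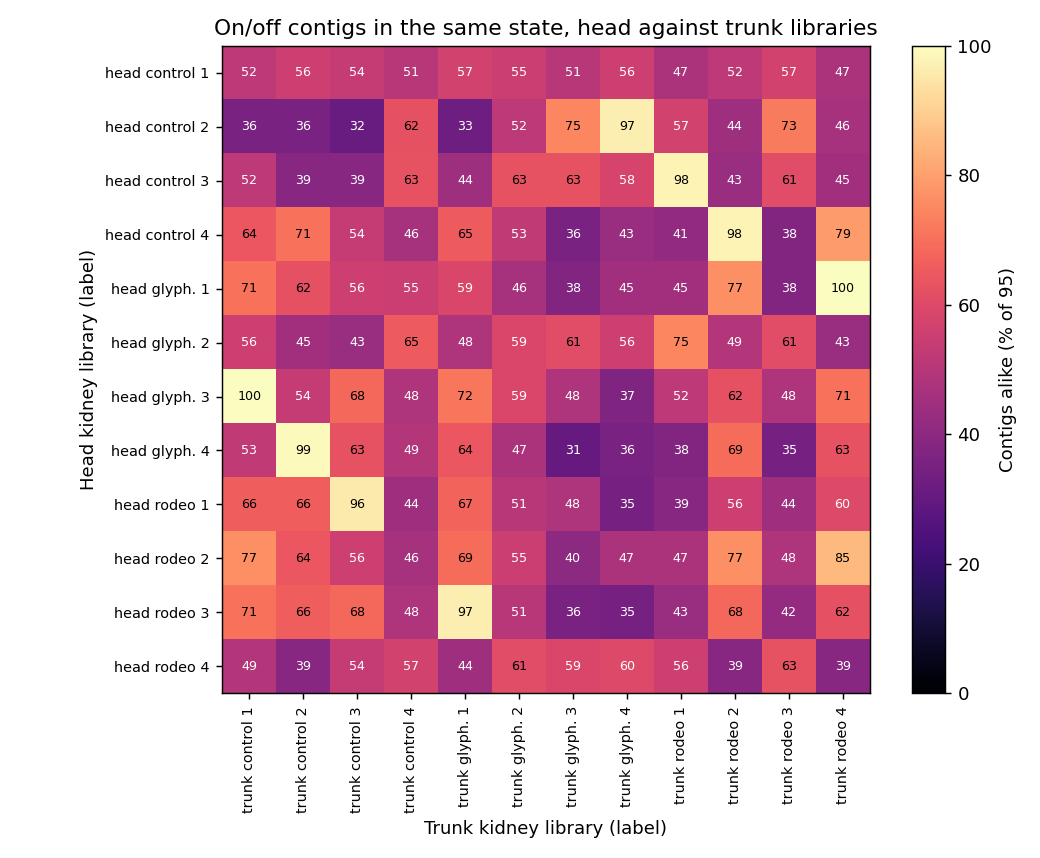
Share of the 95 on/off contigs in the same state for each head library (rows) and trunk library (columns), in percent, with the rounded share printed in each cell. The 8 matched cells stand at 95.8% or more, none on the diagonal where treatment and replicate labels coincide, and the highest other cell is 85.3% (head Rodeo 2 and trunk Rodeo 4).

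Within the 8 pairs, 760 contig states could be compared and 15 of them differed (1.97%). Both libraries were on in 435 and both off in 310. The contig was on in head and off in trunk kidney in 11 of the 15, and the reverse held in 4. These 15 fell in 11 of the 95 contigs, and 84 contigs were alike in all 8 pairs. The widest disagreement was contig07340, at 0.184 CPM (2 counts) in head control 3 and 57.5 CPM (1327 counts) in trunk Rodeo 1. For LMB_Assem.0.C4599 both libraries of a pair held the contig, at 8.13 and 4.35 CPM in head control 4 and trunk Rodeo 2, and only the place of the gap differed between tissues. In 12 of the 15 the off library held at most 3 counts.

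Levels within the on state were also somewhat alike inside a pair. For contigs on in both libraries, the deviation from the contig's median on level in head kidney was set against that in trunk kidney. The correlation over contigs had a median of 0.321 in the 8 matched pairs (range -0.0663 to 0.539) and of -0.047 in the other 136 pairs (range -0.512 to 0.54). The ranges overlap, contigs of 1 library share its depth and scaling, and no test was made.

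The on state was common for most members. It held in 57.2% of 1140 contig and library combinations in head kidney and in 54.5% in trunk kidney. A contig was on in a median of 7 of 12 head and 6 of 12 trunk libraries, within the 2 to 10 that the rule allows. Over both tissues, 27 contigs were on in more than 16 of the 24 libraries, 58 in 8 to 16 and 10 in fewer than 8. The number on was the same in both tissues for 26 contigs, differed by 1 for 37 and by 2 or more for 32. Because 8 libraries of each tissue have a near copy of their pattern in the other, the 24 libraries cannot be counted as 24 separate observations of a frequency.

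The rarest members were contig31713, on in 5 libraries, and contig13425, on in 6. Also on in 6 were isotig130311, isotig85619 and isotig65501_0, with lower on levels than contig13425. In head kidney contig31713 stood at 6.37 CPM in control 1 and 16.7 CPM in control 2, with the others at most at 0.628 CPM. Trunk values were 14.9 CPM in glyphosate 3, 17 CPM in glyphosate 4 and 16.1 CPM in Rodeo 3, with the others at most at 1.31 CPM. Head control 2 and trunk glyphosate 4, which hold its highest value in each tissue, are a matched pair. At the other end LMB_Assem.3489.C2 and contig07940_1 were on in 20 of 24, a number shared by further members of lower on level. The libraries off for LMB_Assem.3489.C2 were head glyphosate 4, head Rodeo 4, trunk control 2 and trunk control 4. For contig07940_1 they were head control 3, head glyphosate 2, trunk glyphosate 2 and trunk Rodeo 1. The widest gap in frequency belonged to contig28527, on in 3 head and 8 trunk libraries. Head values were 12.8 to 20.1 CPM in Rodeo 1, 3 and 4, 0.0518 CPM in Rodeo 2, and 0 in all control and glyphosate libraries. Trunk values were 0.358 to 34.2 CPM in the 8 on libraries and 0 in the other 4.

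**Figure D3:**
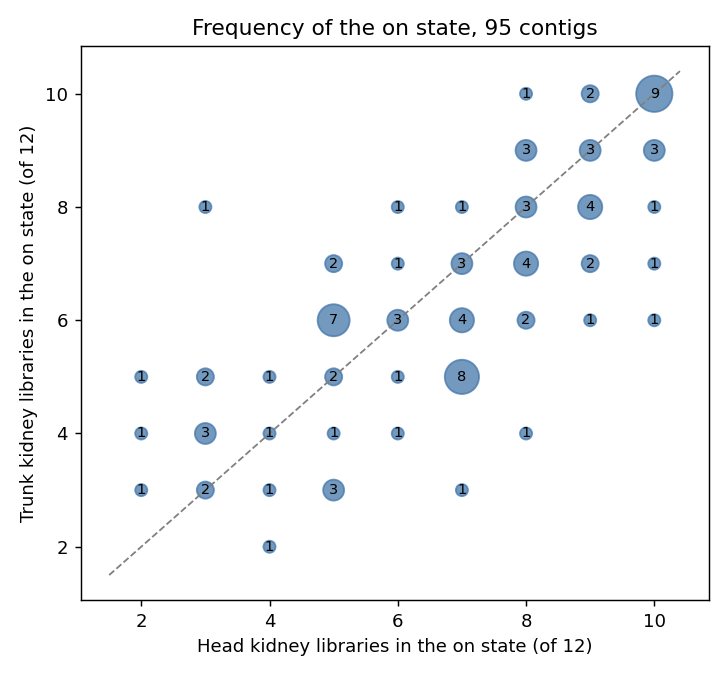
Number of head kidney libraries (horizontal) and trunk kidney libraries (vertical) in the on state, each of 12, with the number of contigs printed in each circle and shown by its area. Most of the 95 contigs lie near the dashed line of equal numbers, and 26 lie on it.

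Most members had a pattern of their own, while a few moved as sets. Of the 4465 pairs of members, 21 (0.47%) had the same state in all 24 libraries and 43 (0.963%) differed in at most 1. The median pair was alike in 12 of 24. The same-state pairs fell into 12 sets with 27 members, and the 95 contigs formed 80 distinct patterns. Given the 8 matched pairs of libraries, the 24 libraries cannot be counted as 24 separate observations of a shared or opposite state.

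The largest set had 5 members, isotig80498, isotig68993, isotig81098, isotig68996 and isotig98173_0. All were on in head control 3, glyphosate 2, glyphosate 3, Rodeo 1 and Rodeo 4, and in trunk control 1, control 3, glyphosate 2, glyphosate 3, Rodeo 1 and Rodeo 3. In head kidney isotig80498 stood at 25.5, 49.6, 44.6, 72.4 and 28 CPM in these libraries, against at most 0.698 CPM in the rest. In trunk kidney it stood at 39, 85, 97.9, 26.8, 54.3 and 45.4 CPM, against at most 0.435 CPM. Head Rodeo 1 was the highest head library for isotig80498, isotig68993 (112 CPM), isotig81098 (44.4 CPM) and isotig68996 (28 CPM). Trunk glyphosate 2 was the highest trunk library for all 4. The member of the set with the lowest CPM, isotig98173_0, stood at 1.05 to 6.75 CPM when on in head kidney and at 0.455 to 3.28 CPM in trunk kidney. It was at 0 counts in every off library.

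The other 11 sets were pairs. LMB_Assem.0.C214 and LMB_Assem.0.C309 were on in 9 head and 8 trunk libraries, with medians of 185 and 18.5 CPM in head and of 16.9 and 1.65 CPM in trunk kidney. Both contigs were thus lower in trunk kidney by about the same factor. Levels are not per length, so they do not rank contigs against each other. A pair of contigs with the same number in their identifier, contig07940_0 and contig07940_1, was on in the same 20 libraries. The contigs isotig77903 and isotig77906 were on in the same 16. In 8 same-kind pairs the identifier numbers of isotigs or contigs lay at most 20 apart, and 3 of these pairs, isotig68993 with isotig68996 among them, had the same state in all 24 libraries. Alike in at least 22 libraries were the same 3 of the 8 near pairs and 33 (2.49%) of the 1324 pairs further apart. How far such pairs count the same reads was not tested.

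Some members had opposite states. In 2 pairs the states were opposite in all 24 libraries, and both pairs held contig31713. Its counterparts isotig130087 and LMB_Assem.0.C449 were on together in 19 libraries and off in the 5 where contig31713 was on. In head kidney isotig130087 stood at 1.23 CPM in control 1 and 0.188 CPM in control 2, and at 45.0 to 170 CPM in the other 10 libraries. In trunk kidney it stood at 0.13 CPM in glyphosate 3 and at 0 in glyphosate 4 and Rodeo 3, and at 9.21 to 59.7 CPM in the other 9. LMB_Assem.0.C449 reached 2.62 to 22.5 CPM when on in head and 6.87 to 18.3 CPM in trunk kidney. Since the pairs were picked for opposite states, a sum that varies less than its parts is favoured by the choice, though not fixed by it. The sums are given as a description. The sum of LMB_Assem.0.C449 and contig31713 had a coefficient of variation of 27.6% in trunk kidney (6.87 to 18.3 CPM), against 69.6% and 173% for the contigs alone, and of 61.4% in head kidney, against 84.3% and 240%. For isotig130087 and contig31713 the sum had 69.9% in trunk kidney, against 101% and 173%, and 58.2% in head kidney, against 63.7% and 240%. The opposite pairs rest on few libraries: without head control 1, head control 2 or trunk Rodeo 1 there were 0, and without trunk glyphosate 4 there were 5. Of the 5 libraries with contig31713 on, head control 2 and trunk glyphosate 4 are a matched pair, so they cannot be counted as separate observations. Over all non-members their r was -0.0215, and why they match was not tested.

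The pair isotig77903 and isotig79235_0, was opposite in 23 of 24 libraries and both were off in the remaining one. In head kidney isotig79235_0 was on at 1.63 CPM in control 2, 4.51 CPM in control 3 and 1.57 CPM in glyphosate 2, the 3 libraries where isotig77903 was off (at most 1.47 CPM against 25.5 to 187 CPM in the other 9). In all, 5 pairs were opposite in at least 23 libraries and 12 in at least 22. Among those 5 pairs there was no library with both contigs on.

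**Figure D4:**
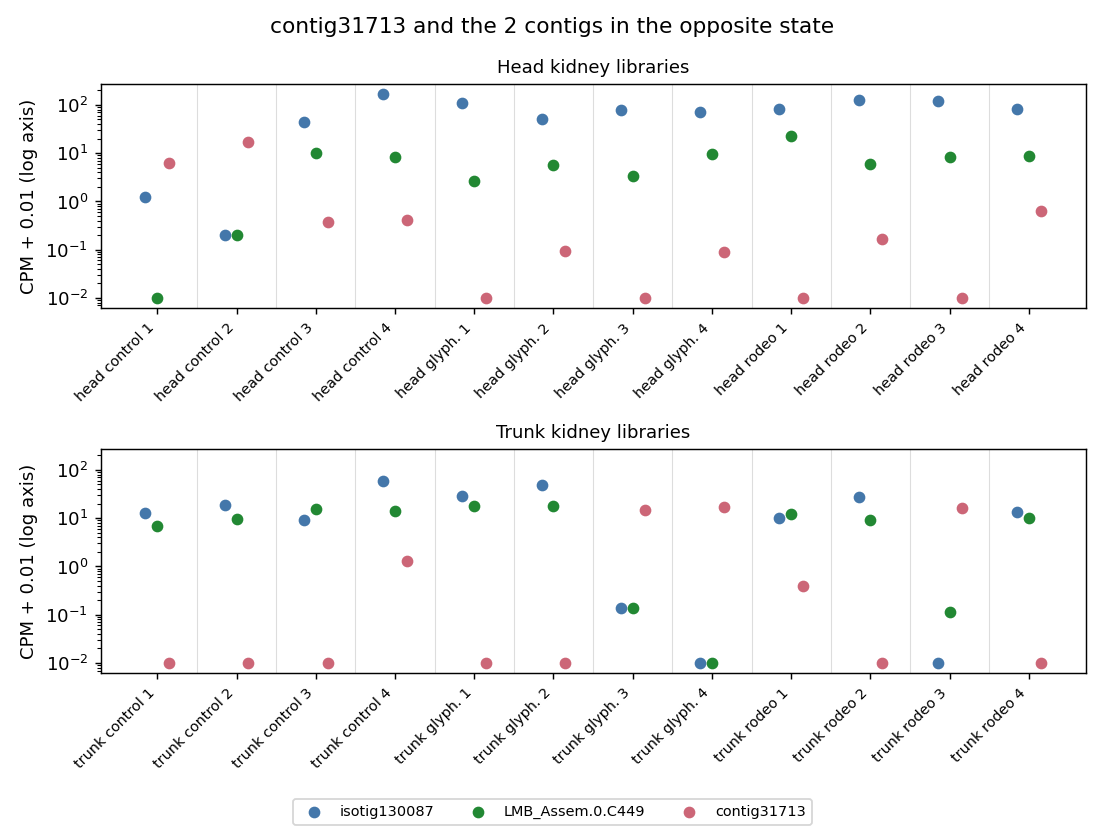
CPM of contig31713 and of isotig130087 and LMB_Assem.0.C449 in each library, on a log axis after adding 0.01 so that counts of 0 appear at the bottom. In head controls 1 and 2, trunk glyphosate 3 and 4 and trunk Rodeo 3 contig31713 is high while the other contigs are low, and in the other 19 libraries the order is reversed.

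The level of the on state differed between tissues more often toward head kidney. The median log2 CPM of on libraries was higher in head kidney for 69 of the 95 contigs and in trunk kidney for 26, with a median difference, trunk minus head, of -0.646 (SD over contigs 1.74). It was within 1 on the log2 scale for 52 contigs, higher by more than 1 in head kidney for 37 and in trunk kidney for 6. Over the 95 contigs the on levels of the 2 tissues had a Pearson correlation of 0.543, a description over contigs of the same libraries. By the highest library of each tissue, 65.3% of the members and 47.1% of the 21907 contigs above the minimum in both tissues were higher in head kidney.

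The largest difference toward head kidney belonged to contig16919. It stood at 88.2, 81.2, 43.2, 47.3 and 25.4 CPM in head control 1, control 2, glyphosate 1, Rodeo 2 and Rodeo 4. In trunk kidney it stood at 3.73, 0.909, 0.963, 1.33 and 2.38 CPM in glyphosate 2, glyphosate 3, glyphosate 4, Rodeo 3 and Rodeo 4, and at 0 in the other 7. Every trunk library was thus below every on library of the head kidney. Next came contig48701, with medians of 60.5 CPM in 9 on libraries of head kidney and 2.14 CPM in 9 of trunk kidney. Toward trunk kidney, isotig105952 had medians of 0.87 CPM in 5 head and 44.6 CPM in 7 trunk libraries. LMB_Assem.0.CB1532 had medians of 1.75 CPM in 7 head and 42.8 CPM in 7 trunk libraries.

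**Figure D5:**
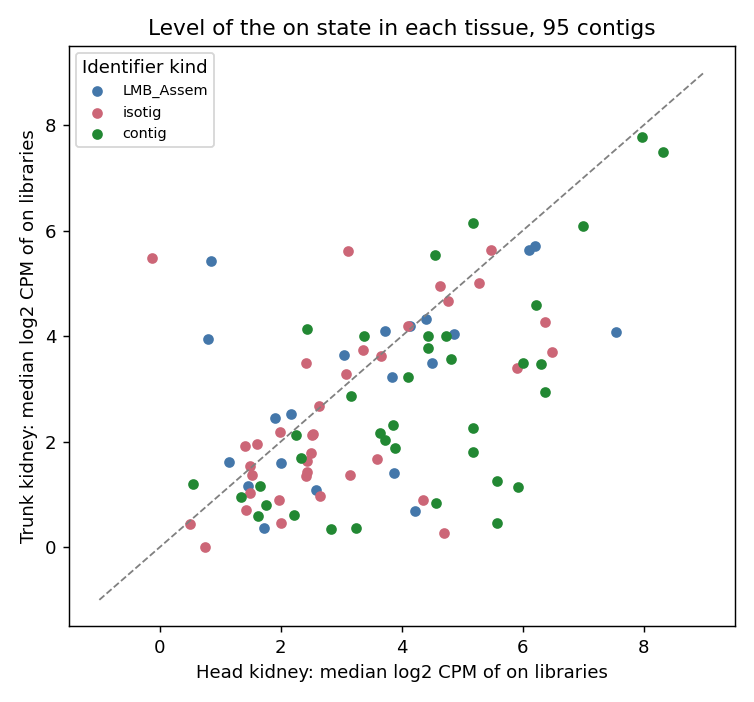
Median log2 CPM of the on libraries in head kidney (horizontal) and trunk kidney (vertical) for each of the 95 contigs, coloured by kind of identifier. The dashed line marks equal levels, and 69 contigs lie below it, toward head kidney.

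A test of the tissues used all 24 libraries and every value, on or off. In edgeR's quasi-likelihood test with Benjamini-Hochberg adjustment over 52407 contigs, 32 of the 95 members (33.7%) passed an adjusted p of 0.05, 25 higher in head and 7 higher in trunk kidney. Among all contigs tested 65% passed (28.3% higher in head and 36.7% in trunk kidney), and among the 21882 of them above the minimum in both tissues 66.8% did (30.5% and 36.3%). The rule asks for a wide spread within each tissue, and its part in the lower share among members was not tested. The median log2 change, trunk minus head, was -0.808 over the members and 0.0861 over the contigs above the minimum. For contig48701 the change was -4.65 (SE 0.751, edgeR adjusted p = 7.36e-06), from 42.8 ± 31.5 CPM in head to 1.59 ± 1.26 CPM in trunk kidney (SD, n = 12 each). For LMB_Assem.0.CB1532 it was 5.0 (SE 0.887, edgeR adjusted p = 2.59e-05), from 1.29 ± 1.45 to 37.7 ± 43.0 CPM. Of the 32, 27 had on levels that differed by more than 1 in the same direction and 4 had on levels within 1. The remaining contig, contig28527, was fitted as higher in trunk kidney (5.51) while its on level was lower there by more than 1. One of the 4 with like on levels was contig23756, with a fitted change of 4.0 (edgeR adjusted p = 0.00518) although its means were 70.4 ± 132 and 77.3 ± 112 CPM. The fit averages log levels over groups, and head controls and head glyphosate libraries had none on. With treatment and replicate number together as a block, 12 of 95 members passed, 9 higher in head and 3 in trunk kidney, where 58.3% of all contigs did. That block ties head and trunk libraries of the same label, which were alike for only 35.8% to 76.8% of the 95 contigs. It holds 0 of the 8 matched pairs, and the test without a block leaves the matches out of account. With only the 8 libraries that have no match, 29 of 93 members passed (33.1% of all contigs did).

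With the filter on low counts and no replicate block, 0 members passed the threshold in edgeR for any of the 6 treatment comparisons. A library had between 37 and 69 of the 95 contigs on. In head kidney the number on was 51, 38, 37 and 57 in controls, 63, 45, 65 and 58 with glyphosate, and 69, 67, 59 and 43 with Rodeo. In trunk kidney it was 65, 57, 67 and 40 in controls, 56, 50, 48 and 37 with glyphosate, and 39, 55, 44 and 63 with Rodeo. The ranges of the 3 groups overlapped in both tissues. Filtering on low counts kept 88 members in head and 85 in trunk kidney. The others, such as contig28527 and contig31036 in head kidney and contig13425 in trunk kidney, were on in too few libraries or too low to be tested.

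In head kidney 0 of 88 members passed an adjusted p of 0.05 in edgeR for glyphosate against control, and 5 had an unadjusted p under 0.05 (5.68%, against 6.42% of all contigs). In edgeR 0% of all contigs passed. DESeq2 called 0 members and 0.0717% of all contigs. For DESeq2, here and below, all contigs means only those to which it gave an adjusted p. Groups did not overlap for 0 members (3.47% of all contigs). The member with the smallest p was contig07340, at 17.3, 0, 20.8 and 0.199 CPM with glyphosate and 0.411, 0.0627, 0.184 and 0 CPM in controls. So 2 of the 4 glyphosate libraries were on and 0 of the controls, with overlapping groups (edgeR adjusted p = 0.761).

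For Rodeo against control in head kidney 0 of 88 members passed (0% of all contigs did), 6 had an unadjusted p under 0.05 (6.82%, against 4.7% of all contigs), groups did not overlap for 0 (3.13% of all contigs), and DESeq2 called 0 (0.13% of all contigs). For Rodeo against glyphosate 0 passed (0% of all contigs), 4 had an unadjusted p under 0.05 (4.55%, against 9.15%), and DESeq2 called 1 (0.332% of all contigs). Without the filter on low counts edgeR called 2, 4 and 2 members in the 3 head kidney comparisons, in the order glyphosate and Rodeo against control and Rodeo against glyphosate, where 0.104%, 0.0373% and 0.198% of all contigs were called. In both comparisons contig23756 had the smallest p. It stood at 379, 1.04, 252 and 194 CPM with Rodeo, 0, 0.663, 0.208 and 0 CPM with glyphosate and 0, 5.04, 0.921 and 1.6 CPM in controls. The Rodeo libraries lay above all glyphosate libraries and overlapped with controls (edgeR adjusted p = 0.262 and 0.923). In all, 3 of 88 members (3.41%) had groups that did not overlap for Rodeo against glyphosate, where 7.15% of all contigs had.

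In trunk kidney 0 of 85 members passed for glyphosate against control in edgeR (0% of all contigs), 6 had an unadjusted p under 0.05 (7.06%, against 10.5% of all contigs), and DESeq2 called 0 (0.309% of all contigs). The smallest p belonged to contig16919, at 0 in all 4 controls and at 0, 3.73, 0.909 and 0.963 CPM with glyphosate (edgeR adjusted p = 0.461). One of 85 members (1.18%) had groups that did not overlap, contig07940_1, against 4.18% of all contigs.

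For Rodeo against control in trunk kidney 0 of 85 members passed in edgeR, where 0.0186% of all contigs did. An unadjusted p under 0.05 was found for 7 (8.24%, against 4.64%), and DESeq2 called 1 (0.145% of all contigs). Groups did not overlap for 4 members (4.71%, against 4.43% of all contigs), lower with Rodeo for contig16934 and contig00177 and higher for LMB_Assem.0.C309 and LMB_Assem.0.C214. The smallest p belonged to contig16934, at 16.4, 17.4, 15.9 and 3.62 CPM in controls and 0.0867, 0.181, 0.102 and 0.232 CPM with Rodeo (log2 fold change -6.42, SE 1.54; edgeR adjusted p = 0.786). It was off in every Rodeo library and on in every control. The state of this contig was among those that defined the matched pairs, so the head values below are no separate evidence. Trunk controls 1, 2 and 3 match head glyphosate 3, glyphosate 4 and Rodeo 1, where contig16934 stood at 18.7, 30.2 and 96.9 CPM. Trunk Rodeo 1, 2 and 4 match head control 3, control 4 and glyphosate 1, where it was at 0. In head kidney the contig was on in 1 control, 3 glyphosate and 3 Rodeo libraries. Its partner contig00177 had the same state in all 24 libraries.

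For Rodeo against glyphosate in trunk kidney 0 of 85 members passed in edgeR (0% of all contigs), 10 had an unadjusted p under 0.05 (11.8%, against 7.65%), groups did not overlap for 0 (4.19% of all contigs), and DESeq2 called 1 (0.758% of all contigs). The smallest p belonged to contig25608, at 0 in all 4 Rodeo libraries and at 0, 19.9, 24 and 16.8 CPM with glyphosate (edgeR adjusted p = 0.26). Same-numbered libraries of these groups were weakly alike in their deviations (r from 0.107 to 0.207), and differently numbered ones reached 0.109. With the replicate number as a block contig25608 was called as lower with Rodeo, 1 member of 85 (0.00232% of all contigs). In head kidney contig25608 was on in 2 controls, 1 glyphosate and 2 Rodeo libraries, at 9.46 to 41.6 CPM. The SE of a log2 fold change was worked back from the change and the F statistic of its test. Its median was 1.42 to 1.57 for members and 0.504 to 0.556 for all contigs over the 6 comparisons. A p that misses the threshold therefore does not show that the groups were alike. With only the libraries that have no match, 1 or 2 per group, 9 to 11 members passed in head kidney, where 0.125% to 0.663% of all contigs did. In trunk kidney 17 to 29 passed, where 0.329% to 0.521% of all contigs did. A lone library is there assumed to vary like the other groups. Since the members were chosen for wide gaps between libraries, contrasts of 1 or 2 libraries are large among them by the choice, and nothing is read from these counts.

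Whether a treatment effect differed between tissues was tested over all 24 libraries as head minus trunk. None of the 95 members passed for glyphosate (0 in edgeR, where 0% of all contigs passed) or for Rodeo (0, where 0.00572% did). An unadjusted p under 0.05 was found for 10 and 14 of the 95 members, against 12% and 6.04% of all contigs. The share of members was thus below that of all contigs for glyphosate and above it for Rodeo. This test also leaves the matched pairs of libraries out of account. The smallest adjusted p among members was 0.289 for contig31713 with glyphosate and 0.329 for contig28527 with Rodeo, by edgeR.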

How the data were processed

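Read counts per transcript contig were deposited by the authors as whole numbers, not normalized, 1 list per library. Contigs missing from a list were set to 0. The submitters' processing notes name SAMtools, cutadapt, edgeR and DESeq, without versions. How reads were aligned and counted, whether strand was used and where the contigs come from is not given in the sources used here. Per the labels' protocols, libraries were made by poly(A) selection with a directional kit and amplified. No molecular identifiers are mentioned, so limits from counts cover counting error only. Titles of the samples gave each group and replicate number.

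For choosing members and for CPM in the text, apart from the exceptions given below, counts were scaled by TMM over all contigs and 24 libraries (edgeR 4.0.16, R 4.3.3). The log2 CPM used a prior count of 1. The members and the lists of named contigs were chosen with earlier results of these data known. Named contigs were the 3 highest on levels, the 3 widest gaps, the 2 rarest and 2 commonest, the 2 largest tissue differences each way, the leading same-state and opposite sets, those nearest the threshold and the smallest p per comparison. Ties in frequency were broken by the mean on level of both tissues. Others named (in discordant pairs, with a further level or with groups that do not overlap) were chosen after their values were seen. Treatment tests fitted the 3 groups of a tissue together (38656 contigs in head and 43072 in trunk kidney after filterByExpr), and the tissue test all 24 libraries. CPM means ± SD of the tissue test and group overlaps use the scaling of that fit. Each SE is the absolute log2 change divided by the square root of the F statistic. It is an approximation, least sure where a group is at 0 counts. The alternatives include DESeq2 1.42.0. The procedures were run on simulated data, with the same spread for all contigs. The simulation of the rule had fish shared between tissues built in, so it cannot decide whether the real libraries share fish. Libraries of a group differed far beyond sampling noise (chi-square per degree of freedom 37.9 to 192), so none was counted as a duplicate. Only for Rodeo against glyphosate in trunk kidney did 4 of 4 same-numbered pairs correlate above 0.1 (r from 0.107 to 0.207). Differently numbered pairs there ranged from -0.158 to 0.109, so a pairing by number rests on a weak likeness. Gene lists and cell type markers could not be used for lack of names.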

Additional observations from a re-analysis of the deposited data

Results flagged for a closer look

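The total of trunk Rodeo 2, 27386031 counts, stood apart from the other 3 Rodeo libraries of that tissue, the gap being 0.872 of the range of the group. It was 1 of 24 groups of values examined (totals, contigs detected, contigs on and share of counts in members), and chance flags about 1 in 20. Gaps of single on/off contigs within a group were not examined in this way, since the contigs were chosen for them.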

How the results depend on the processing

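The size of the set varied with the settings of the rule. A gap of more than 2 gave 218 contigs and more than 4 gave 29, and a maximum above 3 gave 50. These settings gave 40, 6 and 9 pairs in the same state, and with 1 library allowed to differ there were 43. A maximum above 0.5 gave 109 contigs and 24 pairs in the same state. Of the 95, 64 remained with a prior count of 2, 73 of 86 with library totals alone and 87 of 89 with RLE size factors. With 1 library left out there were 89 to 108 contigs, 19 to 28 same-state pairs and a tissue difference of on levels from -0.779 to -0.548. Over the other settings that difference ran from -0.88 with library totals alone to -0.429 for a gap of more than 4. The matched pairs numbered 7 when a matched library was left out, which takes its pair away, and 8 when an unmatched one was. The number of matched pairs was 8 in all other settings except a gap of more than 2, with 6. Pairs in opposite states numbered 0 for a gap of more than 4, for 3 libraries on each side and for a prior count of 0.5, 1 with library totals alone, 5 with 1 library allowed to differ, and 0 to 5 with 1 library left out.

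For treatments, edgeR without the filter called 2, 4 and 2 members in head kidney (glyphosate against control, Rodeo against control, Rodeo against glyphosate), beside 0.104%, 0.0373% and 0.198% of all contigs. The first were contig07340 and contig31713, the second LMB_Assem.0.C183, contig07340, contig23756 and contig28527, and the third contig23756 and contig28527. The filter had left contig28527 and contig31713 out of the head kidney tests. DESeq2 called 1 for Rodeo against glyphosate, contig23756 (0.332% of all contigs). In trunk kidney DESeq2 and the replicate block each called 1 member, contig25608, for Rodeo against control (0.145% and 0.0186% of all contigs) and 1 for Rodeo against glyphosate (0.758% and 0.00232%). For Rodeo against control in trunk kidney the numbers do not pair the libraries. The block changed no other call of a treatment, and gave 12 members in the tissue comparison, where 1 of 12 same-numbered pairs correlated above 0.1. With 1 library left out, 0 members passed for glyphosate against control in both tissues. At most 0.00243% of all contigs did so in head and 0.00221% in trunk kidney. In head kidney the counts were 0 to 1 for Rodeo against control and 0 to 2 against glyphosate, both highest without Rodeo 2 (contig28527, and contig23756 in the second). In each of these fits 2 contigs passed in all (0.00484%). In trunk kidney the counts of members were 0 to 2 and 0 to 1, both highest without glyphosate 1, where 0.0222% and 0.0843% of all contigs passed. The tissue comparison gave 26 to 38 members, where 61.9% to 64.5% of all contigs passed. An alternative chosen after seeing the data kept only the libraries without a matched library, leaving 1 or 2 per group and a lone library assumed to vary like the others. There 10, 9 and 11 members passed in head kidney and 27, 29 and 17 in trunk kidney, and 29 between tissues. Members were chosen for gaps between libraries, so large contrasts of 1 or 2 libraries follow from the choice. The cause of the other changes was not tested.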
